A study of Mus musculus with 6 samples.

Results

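Hexokinase 2 and 9 other enzymes of glycolysis and gluconeogenesis were followed in jejunum, a stretch of the small bowel between duodenum and ileum, from mice lacking both Ifrd1 (TIS7) and Ifrd2 (SKMc15). The 10 genes were Hk1, Hk2, Pfkl, Pfkp, Pklr, Ldha, Ldhb, G6pc, Fbp1 and Pck1, and their members are the 22 probe sets, of 45101 on the array, whose platform annotation names exactly 1 gene and that gene is among them. A further probe set that names Hk1 together with ribosomal protein genes was left out by that rule. Of the 22, 18 were bright enough to be tested. The series holds 6 arrays in 2 groups: 3 TIS7 SKMc15 double knock out mice (numbers 1, 2 and 3), and 3 wild type mice (numbers 1, 3 and 4). All were male, on a C57BL/6 background, caged singly, age-matched at 7 to 10 weeks and fed a synthetic diet with 42% of energy from milk fat and 0.2% cholesterol, and their tissue was taken after 3 weeks of it. No group on another diet is among the samples, and the labels do not say how the alleles were made or in which cells they are lost. The series' title concerns lipid uptake by the gut and obesity, and the question followed here is whether enzymes that break down or make glucose differed between the genotypes on that diet.

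Glycolysis splits glucose into pyruvate. Hexokinases trap glucose in the cell as glucose phosphate, phosphofructokinases commit it to breakdown, pyruvate kinase makes pyruvate, and lactate dehydrogenases interconvert pyruvate and lactate. Gluconeogenesis runs the other way around the irreversible steps, through phosphoenolpyruvate carboxykinase (Pck1), fructose bisphosphatase (Fbp1) and glucose-6-phosphatase (G6pc), which releases free glucose. Liver and kidney are the classical sites of gluconeogenesis, and the small intestine also expresses these enzymes. Hk2 is the insulin-regulated hexokinase of muscle and fat that many dividing and tumour cells also use, whereas Hk1 is present in most tissues.

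The stretches just before the annotated starts of Hk2, G6pc and Pck1 are shown because Hk2 was the only one of the 10 genes past the test and because G6pc and Pck1 varied most between double knockout mice. They are the 250 bases upstream of each start in RefSeq's GRCm38.p6 annotation, 5′ to 3′ on the gene's strand. Capitals mark, on either strand, ACGTG (the core of the hypoxia-inducible factor site), CCAAT (the CCAAT box), TGACG (part of the cAMP response element) and TATAAA (the TATA box).
Hk2, chr6:82774455-82774704, minus strand: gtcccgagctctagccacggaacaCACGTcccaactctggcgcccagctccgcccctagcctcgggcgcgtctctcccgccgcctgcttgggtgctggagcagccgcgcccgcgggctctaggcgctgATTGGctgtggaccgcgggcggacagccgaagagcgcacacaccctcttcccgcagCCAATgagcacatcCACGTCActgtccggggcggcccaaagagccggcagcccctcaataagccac
G6pc, chr11:101367466-101367715, plus strand: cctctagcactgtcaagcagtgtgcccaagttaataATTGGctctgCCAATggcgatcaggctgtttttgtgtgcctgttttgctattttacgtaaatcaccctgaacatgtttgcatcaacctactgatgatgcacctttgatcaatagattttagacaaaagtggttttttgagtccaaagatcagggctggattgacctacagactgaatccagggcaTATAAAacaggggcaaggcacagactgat
Pck1, chr2:173152823-173153072, plus strand: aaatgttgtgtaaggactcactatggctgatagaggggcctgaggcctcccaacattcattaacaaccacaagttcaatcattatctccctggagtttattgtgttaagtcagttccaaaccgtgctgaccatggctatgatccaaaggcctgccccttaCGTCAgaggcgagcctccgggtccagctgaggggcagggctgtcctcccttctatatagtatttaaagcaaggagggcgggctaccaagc
The Hk2 stretch held 2 matches to ACGTG, 2 to CCAAT and 1 to TGACG, the last overlapping a match to ACGTG. The G6pc stretch held 2 matches to CCAAT and 1 to TATAAA, and the Pck1 stretch 1 match to TGACG. Among 32851 windows of the same length in the table, 16.6% held ACGTG, 33.8% CCAAT, 17.8% TGACG and 12.4% TATAAA. Of the 10 genes, all of which had at least 1 window, 2 (Hk2 and Ldha) held ACGTG, 6 held CCAAT, 3 held TGACG and 2 held TATAAA. Those counts are of genes with a match in any window, and Hk1, Pklr and Ldha had 2 windows each. The percentages are of single windows, so the counts and percentages are not on the same footing. These matches describe letters only. None of the 10 genes lies on the chromosome of Ifrd1 or of Ifrd2.

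The arrays were checked first. Ifrd2 stood at 2.64, 2.74 and 2.59 in double knockout mice, against 8.20, 8.32 and 8.61 in wild type mice, on the log2 scale of the deposited values, which is at least 20.8-fold lower when values under 4 are raised to 4 (limma adjusted p = 2.37e-05). Ifrd1 stood at 6.27, 4.80 and 4.85 in double knockout mice, against 10.00, 9.84 and 9.91 in wild type mice (limma adjusted p = 0.00894). The labels do not name the deleted exons, so a probe set outside them would check nothing. Enterocyte markers (10 of 12 measured) had a mean log2 level of 13.39 to 13.45 in double knockout and 13.48 to 13.52 in wild type mice, and their summed linear level was 117975 to 120285 in double knockout and 125042 to 127575 in wild type mice. Markers of proliferating crypt cells (12 of 13 measured) had a mean log2 level of 8.81 to 8.93 in double knockout and 8.30 to 8.39 in wild type mice. Their summed linear level was 7685 to 8523 in double knockout and 5939 to 6316 in wild type mice. Of these 12 markers, 6 passed the test upward, where 4.79% of all 9674 measured genes passed in either direction. Of 4 red blood cell markers only Hba-a1 and Alas2 matched a probe set. Both stayed under 4 on every array, so 0 of the 4 were measured.

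Hk2 was the member that changed. Its probe set (1422612_at) read 7.38, 7.43 and 7.28 in double knockout mice 1, 2 and 3, against 6.47, 6.31 and 5.84 in wild type mice 1, 3 and 4. Every double knockout mouse lay above every wild type mouse, and the wild type mice were the more spread. The means were 7.36 ± 0.075 in double knockout and 6.21 ± 0.33 in wild type jejunum (SD, n = 3 each). Hk2 thus rose by 1.15 ± 0.17 (SE) on the log2 scale, or 2.22-fold, with a 95% interval of 0.75 to 1.55 (limma, adjusted p = 0.0257 over 18013 probe sets). It was 1 of 18 tested member probe sets past the threshold of 0.05, where 4.47% of all tested probe sets passed, 2.54% upward and 1.93% downward. One call among 18 is near what that background gives, so the count by itself says nothing of the pathway.

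The call rested on all 6 mice, although the size did not. Leaving out any single mouse, wild type or double knockout, left a difference of 0.97 to 1.29 and ended the call, with adjusted p-values of 0.0537 to 0.0809 by limma. Calls over all 18013 tested probe sets fell as well, from 805 to between 32 and 435. The unadjusted limma p of Hk2 was 0.000150 to 0.00177 in these fits, against 0.000287 with all mice. The Hk2 call was also lost with the 3′ to 5′ difference of the control transcripts as a covariate (1.17 ± 0.24, limma adjusted p = 0.167), where 17 probe sets in all passed. That difference, a sign of RNA quality, was 0.60, 0.41 and 0.61 in double knockout mice 1, 2 and 3. It was 0.35, 0.49 and 0.36 in wild type mice 1, 3 and 4. Double knockout mice 1 and 3 thus lay above every wild type mouse, and double knockout mouse 2 lay among them. Proliferating crypt markers were also higher in every double knockout mouse than in any wild type mouse, as given above. Within the groups their order differed from that of Hk2. Double knockout mouse 3 was the highest for them (8.93) and the lowest double knockout mouse for Hk2 (7.28). The double knockout mice spanned only 8.81 to 8.93 for these markers and 7.28 to 7.43 for Hk2, so nothing is read from that order. Fibroblast and matrix markers (8 of 8 measured, none past the test) had a mean log2 level of 8.43 to 8.91 in double knockout and 7.79 to 8.48 in wild type mice, a median difference of 0.49, and a summed linear level of 5566 to 7277 in double knockout and 3655 to 5722 in wild type mice. Wild type mouse 4 was the lowest for them, as for Hk2. Macrophage and dendritic cell markers (5 of 8 measured, none past the test, with Cd68, Itgax and Cd14 too dim) had a mean log2 level of 7.79 to 8.69 in double knockout and 7.55 to 8.15 in wild type mice, a median difference of 0.31, and a summed linear level of 2895 to 4194 in double knockout and 2521 to 4033 in wild type mice. Crypt stem cell (6 of 6 measured), smooth muscle (7 of 7) and T lymphocyte markers (4 of 7) had median differences of 0.23, 0.04 and 0.11. Their groups overlapped and none passed the test. Wild type mouse 4 was also the lowest mouse for the proliferating crypt, macrophage and crypt stem cell lists. It was not so for the smooth muscle, T lymphocyte and enterocyte lists. The part of these marker lists in the rise of Hk2 was not tested. In pieces of tissue, more cells of a type and more RNA per cell cannot be told apart.

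**Figure D1:**
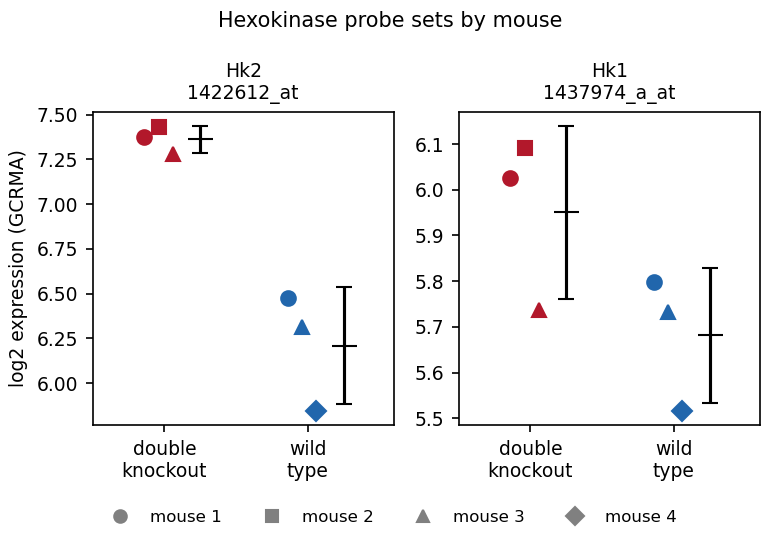
Log2 expression (GCRMA, vertical axis, its own scale in each panel) of the Hk2 and Hk1 probe sets in 3 double knockout (red) and 3 wild type (blue) mice, the marker shape giving the mouse number and the black bar the mean and SD. For Hk2 the double knockout mice sit between 7.28 and 7.43, above all wild type mice, while the groups overlap for Hk1.

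Hk1, the hexokinase of most tissues, read 6.02, 6.09 and 5.74 in double knockout mice, against 5.80, 5.73 and 5.52 in wild type mice. Double knockout mouse 3 lay among the wild type mice, and the difference of 0.27 ± 0.13 did not pass (95% interval -0.04 to 0.58, limma adjusted p = 0.234). A second Hk1 probe set (1420901_a_at) was under 4 on every array and was not tested. The change of Hk2 exceeded that of Hk1 by 0.88 on the log2 scale. Hk2 minus Hk1 was 1.35, 1.34 and 1.55 in double knockout mice, against 0.68, 0.58 and 0.33 in wild type mice. Every double knockout mouse lay above every wild type mouse in that difference. An exact two-sided permutation test over the 20 splits of the mice cannot go below p = 0.1, which it gave, so it cannot pass 0.05 whatever the values and nothing is read from it. Hkdc1, a further member of the hexokinase family, stood at 10.47, 10.70 and 10.50 in double knockout mice, against 10.52, 10.54 and 10.53 in wild type mice (0.03 ± 0.09, limma adjusted p = 0.864).

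The phosphofructokinases did not pass. Pfkp, named for its platelet form, was measured brightly by 1416069_at, with 11.16, 11.08 and 11.07 in double knockout mice and 10.95, 11.15 and 11.21 in wild type mice. The groups lay within each other, and the difference of -0.0017 had a 95% interval of -0.23 to 0.23, so a change as large as that of Hk2 lies outside it. A dimmer Pfkp probe set (1430634_a_at) read 4.19, 4.47 and 3.43 in double knockout mice, against 4.51, 4.31 and 4.56 in wild type mice (-0.43 ± 0.26, limma adjusted p = 0.327), and the remaining one (1437759_at) stayed under 4. For Pfkl, the liver form, 1450269_a_at read 5.63, 5.94 and 5.86 in double knockout mice, against 6.05, 6.19 and 6.23 in wild type mice. The groups did not overlap there, but the difference of -0.34 ± 0.11 did not pass (limma adjusted p = 0.114). The brighter Pfkl probe set, 1439148_a_at, differed by -0.11 ± 0.13 with overlapping groups, and 1453541_at was under 4 throughout.

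Pklr, the pyruvate kinase of liver, red cells and gut, had 3 tested probe sets, all with negative differences and none past the test. On 1421258_a_at it read 8.88, 8.86 and 8.85 in double knockout mice, against 9.08, 9.54 and 9.33 in wild type mice. The double knockout mice were nearly level and lay below every wild type mouse, and the difference was -0.45 ± 0.13 (95% interval -0.76 to -0.15, limma adjusted p = 0.0872). The other 2 probe sets differed by -0.35 ± 0.22 and -0.17 ± 0.18 and their groups overlapped (limma adjusted p of 0.344 and 0.564). The lactate dehydrogenases did not pass. Ldha, the muscle-type subunit, read 12.75, 12.76 and 12.70 in double knockout mice, against 12.67, 12.75 and 12.77 in wild type mice, a difference of 0.01 with a 95% interval of -0.18 to 0.20. Ldhb, the heart-type subunit, had 4 probe sets with differences between -0.17 and -0.0025, overlapping groups, and limma adjusted p-values between 0.315 and 0.991. On 1416183_a_at, for example, it read 6.41, 6.16 and 6.27 in double knockout mice, against 6.22, 6.19 and 6.43 in wild type mice. The suffix of 1448237_x_at and 1455235_x_at is the one Affymetrix gives to probe sets that may share sequence with other transcripts, and whether they detected any was not tested.

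**Figure D2:**
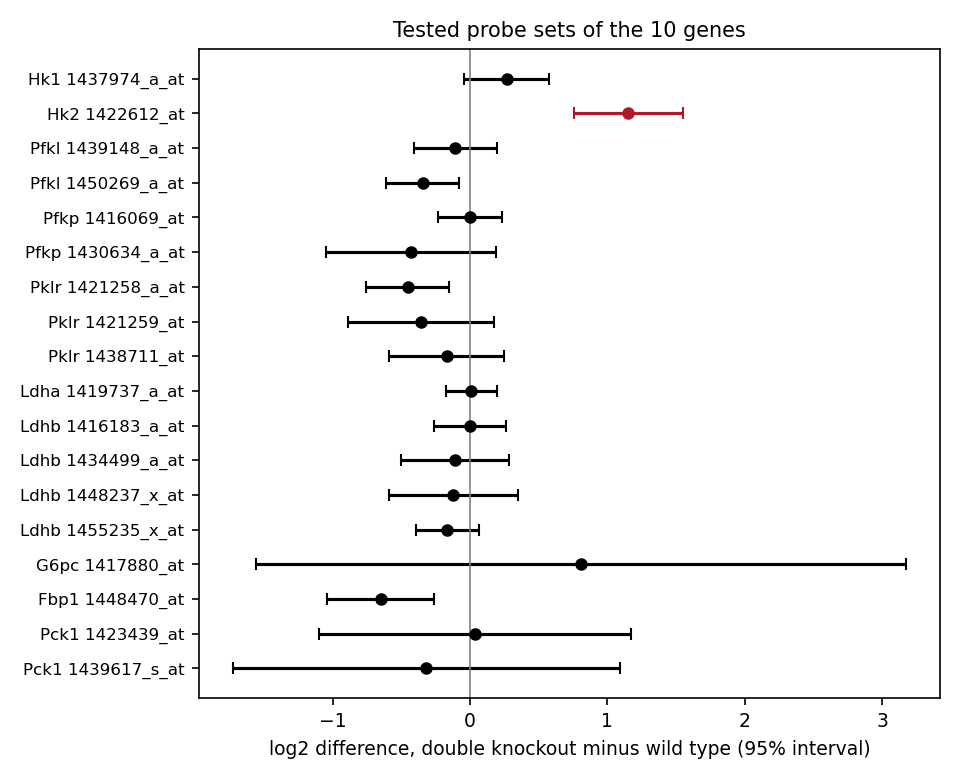
Log2 difference, double knockout minus wild type, of the 18 tested probe sets (horizontal axis, bars give limma's 95% interval). Hk2, in red, is the point past the test at 1.15, and the intervals of G6pc and Pck1 are the widest.

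Among the gluconeogenic enzymes, Fbp1 came nearest to the threshold. It read 11.27, 11.42 and 11.62 in double knockout mice, against 11.93, 12.40 and 11.93 in wild type mice. Every double knockout mouse was below every wild type mouse, and the difference was -0.65 ± 0.16 (95% interval -1.04 to -0.26), with a limma adjusted p of 0.0697. With an intensity trend in the variance prior it passed (limma adjusted p = 0.0334), a setting under which 1645 probe sets passed in place of 805. Fbp1, Pfkl and Pklr were the 3 of 18 probe sets whose double knockout mice all lay below the wild type mice, and Hk2 the 1 whose double knockout mice all lay above. Over all tested probe sets, 34.3% had groups that did not overlap, 14.8% with the double knockout mice lower and 19.5% with them higher.

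G6pc did not pass and was the most variable of the 18 probe sets among double knockout mice. It read 8.28, 8.53 and 12.08 in double knockout mice 1, 2 and 3, against 8.15, 9.37 and 8.94 in wild type mice. Double knockout mouse 3 stood 11.6-fold above the next double knockout mouse, a gap of 3.54 on the log2 scale that no other of the 18013 tested probe sets exceeded, while the other double knockout mice lay among the wild type ones. The difference of 0.81 ± 0.99 did not pass (95% interval -1.56 to 3.18, limma adjusted p = 0.628), and without double knockout mouse 3 it turned to -0.42. The liver markers Alb, Apoh and Fgb stayed under 4 on every array, also in that mouse. Ttr, the remaining liver marker measured, read 6.17, 7.26 and 7.23 in double knockout mice, against 6.70, 6.60 and 6.30 in wild type mice (limma adjusted p = 0.484).

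Pck1, which makes phosphoenolpyruvate, put the double knockout mice in the same order. On 1423439_at it read 9.56, 10.74 and 11.64 in double knockout mice 1, 2 and 3, against 10.43, 10.73 and 10.67 in wild type mice. On 1439617_s_at it read 5.02, 6.79 and 7.54 in double knockout mice, against 6.59, 6.72 and 6.99 in wild type mice. On both probe sets double knockout mouse 1 was the lowest and double knockout mouse 3 the highest of all 6 mice, and the wild type mice were close together. The differences of 0.04 ± 0.48 and -0.32 ± 0.59 did not pass (limma adjusted p of 0.968 and 0.755), and the first turned to -0.46 without double knockout mouse 3, the second to 0.40 without double knockout mouse 1. The SD of Pck1 on 1423439_at was 1.04 in double knockout and 0.16 in wild type mice, and that of G6pc 2.12 in double knockout and 0.62 in wild type mice (n = 3 each). The remaining Pck1 probe set (1455209_at) was under 4 on every array.

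**Figure D3:**
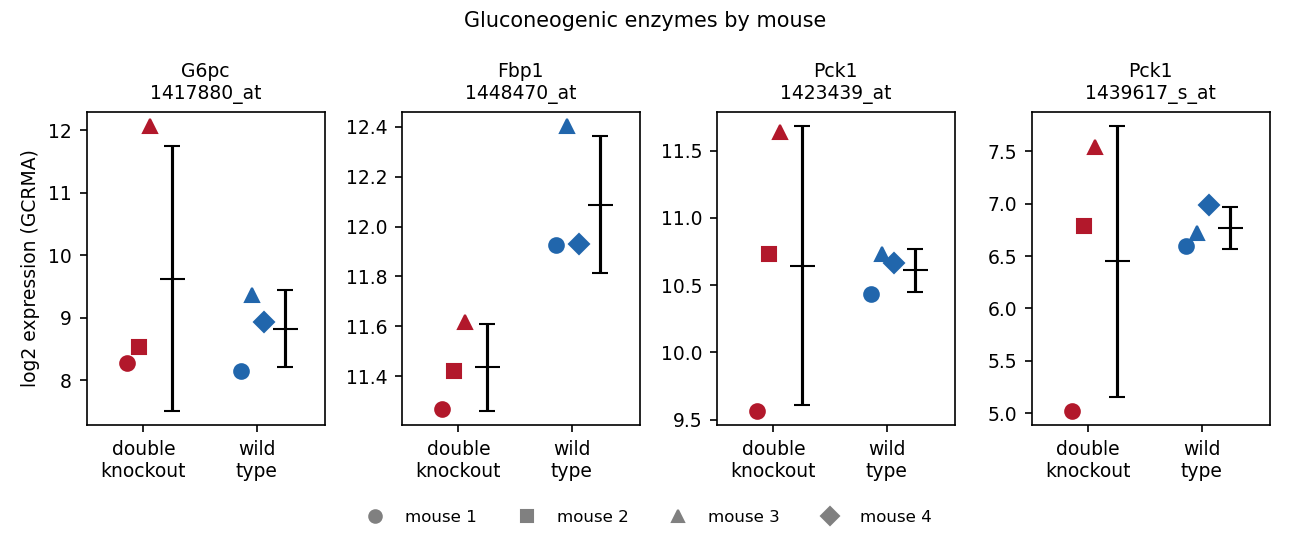
Log2 expression (GCRMA, vertical axis, its own scale in each panel) of G6pc, Fbp1 and Pck1 by mouse, with double knockout in red, wild type in blue, the marker shape giving the mouse number and the black bar the mean and SD. Double knockout mouse 3 is the highest mouse for G6pc (12.08) and on both Pck1 probe sets, and Fbp1 is lower in every double knockout mouse.

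The rest of the pathway was read from 8 lists holding 105 symbols, of which 95 matched a probe set and 80 genes were measured after the filter. With the brightest probe set standing for a gene, 1 of the 80 rose, 0 fell and 79 did not pass, against 4.79% of all 9674 measured genes past the test. The median log2 difference over the 80 was 0.04, beside 0.05 over all measured genes. Of 10 other glycolytic enzymes 0 passed (median 0.01). Tpi1, Pgk1 and Pgam1 of the lower pathway differed by 0.01, -0.01 and 0.01, and Aldoa and Pkm by 0.08 and 0.12 (limma adjusted p of 0.569 to 0.946). The members of this list with the smallest p were Pfkm, the muscle phosphofructokinase, at 0.37 ± 0.12, and Aldoc, an aldolase, at -0.53 ± 0.25 (limma adjusted p of 0.114 and 0.234).

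Of 11 further genes of gluconeogenesis and its carbon supply 0 passed (median 0.08). Fbp2, the other fructose bisphosphatase, read 12.10, 12.24 and 12.20 in double knockout mice, against 12.42, 12.50 and 12.43 in wild type mice (-0.27 ± 0.08, limma adjusted p = 0.104). Like Fbp1, it was lower in every double knockout mouse and passed with an intensity trend (limma adjusted p = 0.0305), where calls over all probe sets were 1645 in place of 805. G6pc3, the widely expressed glucose-6-phosphatase, differed by 0.41 ± 0.15, and Slc37a4, which carries glucose phosphate into the endoplasmic reticulum, by 0.32 ± 0.16 (limma adjusted p of 0.138 and 0.239). Pck2, the mitochondrial carboxykinase, differed by 0.20 ± 0.12 (limma adjusted p = 0.319). Of 7 genes that set fructose bisphosphate signalling or hold hexokinase at mitochondria, 0 passed (median 0.09). Pfkfb3, a kinase that makes the activator of phosphofructokinase, read 7.45, 6.85 and 7.53 in double knockout mice, against 6.64, 6.80 and 6.25 in wild type mice. Its groups did not overlap, and the difference of 0.71 ± 0.22 did not pass (limma adjusted p = 0.106). Tigar, a phosphatase acting against Pfkfb3, differed by 0.27 ± 0.13 (limma adjusted p = 0.234).

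The gene that rose among the 80 was Pdhx, the subunit that tethers the dehydrogenase in the pyruvate dehydrogenase complex, which carries pyruvate into mitochondrial oxidation. It read 5.85, 6.06 and 5.92 in double knockout mice, against 5.23, 5.42 and 5.25 in wild type mice, a rise of 0.64 ± 0.10 (limma adjusted p = 0.0273), and was 1 of 13 genes in the list of pyruvate and lactate fate (median 0.08). Other subunits of that complex depended on the probe set. Dlat, the acetyltransferase, rose by 0.96 ± 0.19 on its dimmer 1452005_at (limma adjusted p = 0.0470) and differed by 0.33 ± 0.11 on its brightest probe set (limma adjusted p = 0.126). Pdhb, a subunit of the decarboxylase, rose by 0.99 ± 0.19 on its dimmer 1448214_at (limma adjusted p = 0.0412) and differed by 0.45 ± 0.14 on its brightest (limma adjusted p = 0.113). Pdha1, its partner, differed by 0.11 ± 0.09, and Dld, its lipoamide dehydrogenase, by -0.12 ± 0.08 (limma adjusted p of 0.488 and 0.381). Dlat lies on the chromosome that carries Ifrd2. When every probe set counted by itself, 5 of 146 passed, 3 upward and 2 downward, against 4.47% of all tested probe sets, so the count is no result about the pathway. Those downward were dimmer probe sets of Mdh1, the cytosolic malate dehydrogenase (-0.52 ± 0.09), and of Nr3c1, the glucocorticoid receptor (-1.04 ± 0.15), with limma adjusted p-values of 0.0383 and 0.0255. Pdhx, Dlat, Pdhb and Mdh1 each lost the call in all 6 fits that left out a mouse, with limma adjusted p-values between 0.0518 and 0.135, and Nr3c1 kept it in 1 of them (0.0494 to 0.0965). All 5 calls were lost under the replicate block as well.

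**Figure D4:**
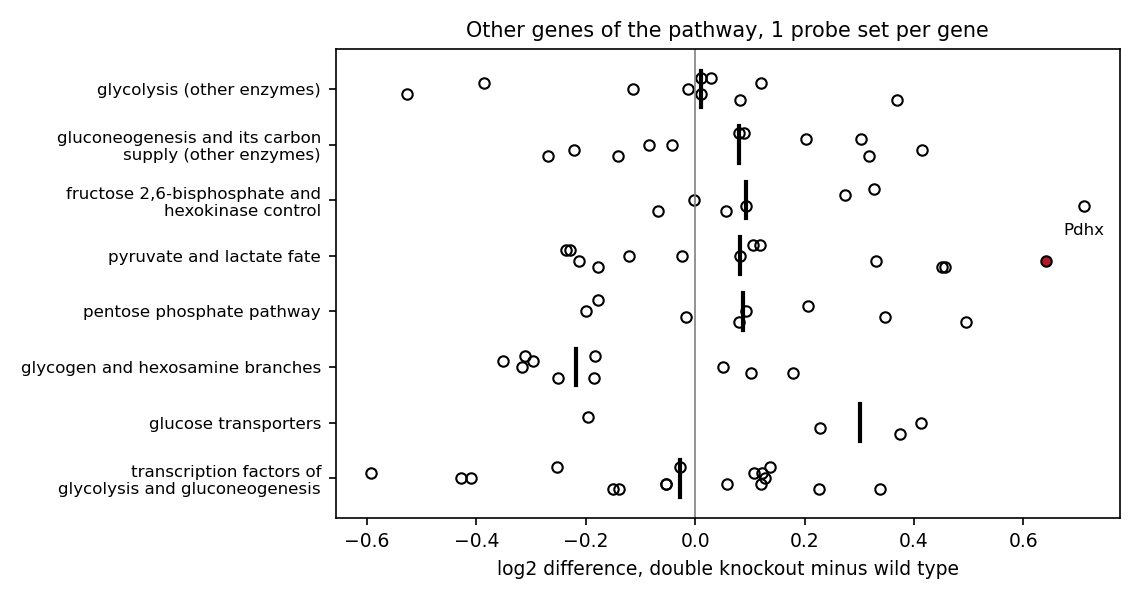
Log2 difference, double knockout minus wild type (horizontal axis), of 80 genes in 8 lists, 1 open circle per gene, the filled red circle marking the gene past the test (Pdhx, 0.64) and the black stroke the list's median. Medians run from -0.22 for glycogen and hexosamine branches to 0.30 for the 4 glucose transporters.

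The branches fed by glucose phosphate showed 0 calls. Of 8 pentose phosphate genes (median 0.09), Rpia, ribose phosphate isomerase, read 10.28, 10.20 and 10.36 in double knockout mice, against 9.73, 10.05 and 9.57 in wild type mice (0.50 ± 0.14, limma adjusted p = 0.0847), and Pgls, the lactonase, differed by 0.35 ± 0.13 (limma adjusted p = 0.153). Of 10 genes of the glycogen and hexosamine branches, which include the glycogen phosphorylases Pygb and Pygl, 7 had negative differences (median -0.22), with Gnpnat1 and Uap1, enzymes of the hexosamine branch, at -0.32 ± 0.09 and -0.30 ± 0.12 (limma adjusted p of 0.0986 and 0.185). Of 4 glucose transporters (median 0.30), Slc2a1, the widely expressed carrier, read 7.75, 7.79 and 7.67 in double knockout mice, against 7.43, 7.17 and 7.50 in wild type mice (0.37 ± 0.11, limma adjusted p = 0.0956). Slc2a2, the basolateral carrier of enterocytes, differed by 0.23 ± 0.11 and Slc5a1, the brush border sodium-glucose cotransporter, by -0.20 ± 0.09 (limma adjusted p of 0.219 and 0.220). Of 17 transcription factors of these pathways (median -0.03) 0 passed on the brightest probe set. Nr3c1 at -0.41 ± 0.10 and Hif1a, the oxygen-regulated activator of glycolytic genes, at -0.43 ± 0.11 had the smallest p. Their limma adjusted p-values were 0.0646 and 0.0753. On its dimmer 1416035_at Hif1a differed by -0.11 ± 0.13 with overlapping groups (limma adjusted p = 0.610). Myc differed by 0.12 ± 0.23 (limma adjusted p = 0.757).

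The genes whose pattern over the 6 arrays was most like that of Hk2, by Pearson's r among 15860 probe sets of other genes, were Phf2 (r = 0.998), Cdc25b (0.998), Mmadhc (0.998), Tubgcp5 (0.995), Cct7 (0.995) and Cct5 (0.994). With 6 arrays in 2 groups such values are common, and 240 probe sets had r above 0.95, so the order is a description. Cdc25b, a phosphatase that triggers mitosis, read 4.75, 4.74 and 4.61 in double knockout mice, against 4.17, 4.06 and 3.78 in wild type mice. Tubgcp5, a component of the gamma-tubulin ring, read 4.70, 4.73 and 4.72 in double knockout mice, against at most 3.98 in wild type mice, so it passed the filter at 4 only through the double knockout mice. The chaperonin subunits Cct7 and Cct5 differed by 0.35 ± 0.08 and 0.31 ± 0.08 on the log2 scale. Since these genes were chosen for a pattern that separates the genotypes, no test of them is given. In all 6 genes, as in Hk2, wild type mouse 4 had the lowest value. The choice by correlation with Hk2 makes that likely, so nothing is read from it.

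**Figure D5:**
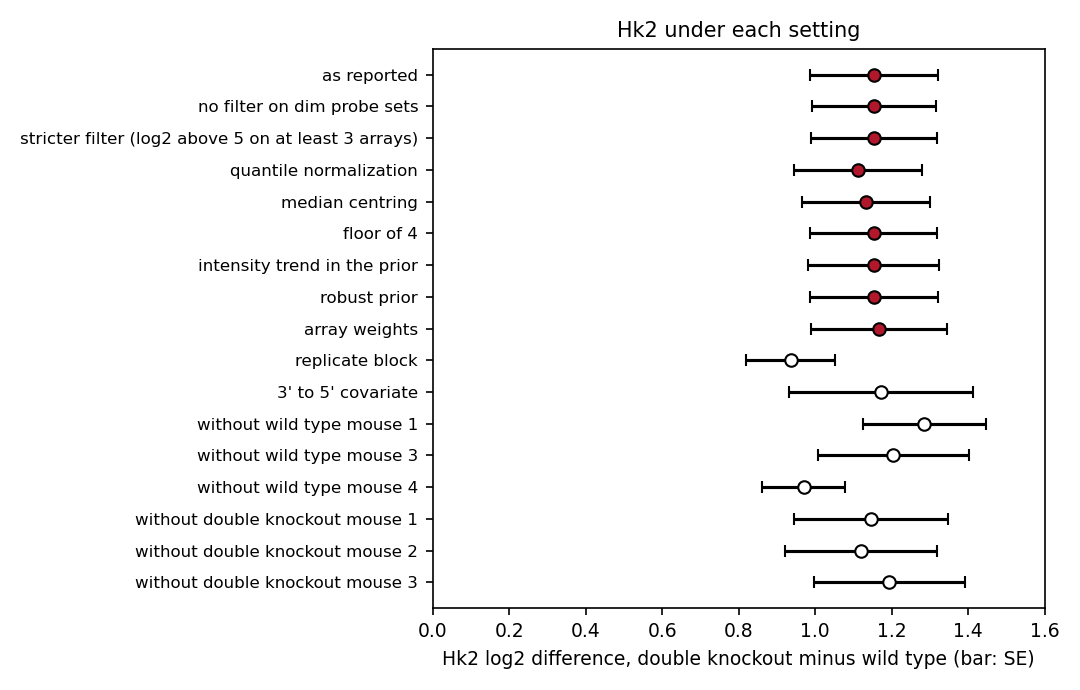
Hk2 log2 difference, double knockout minus wild type (horizontal axis, bar gives the SE), as reported and under 16 other settings, filled red where the adjusted p was at most 0.05. The difference stays between 0.94 and 1.29 and keeps its call in 8 of the 16, losing it under the replicate block, the 3′ to 5′ covariate and each of the 6 fits without a mouse.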

How the data were processed

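Jejunal RNA (500 ng) of 6 mice was hybridised to 1 Affymetrix mouse whole-genome array each. Each deposited value is the log2 expression of a probe set, computed by the authors. The submitters' processing notes name GCRMA 2.18.0, without settings. The log2 scale was read from the values. GCRMA models background from probe sequence and normalises the arrays jointly, so low values carry little information.

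Of 45101 probe sets, 64 controls were removed and those above 4 on at least 3 of 6 arrays kept (18013). The groups were compared with limma 3.58.1 (lmFit, eBayes, no trend) in R 4.3.3, two-sided, with Benjamini-Hochberg adjustment over all 18013. The fit was tested on simulated data. Each array is a separate mouse, and the number of arrays limits the precision. Names came from the platform annotation, updated through the GRCm38.p6 gene table. List symbols were matched by name only, and those without a match are not analysed here.

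The members, lists, markers and tests were chosen with earlier results of these data known. Named were all members, the passing genes of each list or those with the smallest p, and the 6 genes most like Hk2. Other named genes were chosen after their values were seen. Alternatives covered the filter, normalization, floor, variance prior, array weights, mouse number, RNA quality and each mouse.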

Additional observations from a re-analysis of the deposited data

How the results depend on the processing

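Hk2 was higher in double knockout mice under all 16 alternatives and kept its call in 8: no filter, a stricter filter, quantile normalization, median centring, a floor of 4, an intensity trend, a robust prior and array weights. With the mouse number as a replicate block the difference was 0.94 (limma adjusted p = 0.139), with the 3′ to 5′ covariate 1.17, and without single mice 0.97 to 1.29. Ifrd1 lost its call under the block (-4.36) and the covariate (-4.93). Numbers 1 and 3 alone occur in both groups, same-numbered mice correlated at 0.020 and 0.30 in their deviations, and nothing in the labels pairs them, so that fit rests on mice 1 and 3 of each group. Member calls numbered 1 as reported, 2 with the trend (Hk2 and Fbp1), and 0 under the block, the covariate or without any mouse. Genes called among the pathway lists numbered 1 as reported, 6 with the trend (Fbp2, Mdh1, Pdhx, Rpia, Hif1a and Nr3c1), 5 with every probe set counted, and 0 under the block, the covariate or without any mouse. All probe sets called numbered 805 as reported, 472 without the filter, 1645 with the trend, 13 under the block, 17 with the covariate and 32 to 435 without single mice. The change of Hk2 minus that of Hk1 ran from 0.78 to 0.96 without single mice.

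Directions turned for members that had not passed. With the covariate G6pc stood at -0.32 and Pfkl 1439148_a_at at 0.0011. Pfkp 1416069_at stood at 0.0080 after quantile normalization and 0.063 under the block, Ldha at -0.011 after median centring, and Ldhb 1416183_a_at and 1448237_x_at at 0.13 and 0.078 under the block. Without single mice the ranges were -0.42 to 1.48 for G6pc, -0.46 to 0.58 and -0.86 to 0.40 for Pck1, -0.19 to 0.020 for Pfkl, -0.076 to 0.050 for Pfkp, -0.023 to 0.029 for Ldha, and -0.070 to 0.073, -0.21 to 0.028 and -0.25 to 0.066 for Ldhb. Beyond fewer mice, the causes were not tested.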

Other observations

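Double knockout mouse 3 carried a set of high transcripts that included G6pc. Among the 18013 tested probe sets, ranked by how far that mouse stood above all 5 other mice, G6pc ranked 2 with a gap of 2.71 on the log2 scale, and the probe set ahead of it is unnamed here. It was followed, among named genes, by Gadd45g (9.11 in that mouse, gap 2.56) and Gadd45b (8.78, gap 2.13), stress-inducible growth arrest genes, by G0s2, an inhibitor of triglyceride lipase (10.74, gap 2.49), by Kctd14 (7.80, gap 2.02) and by Angptl4, an inhibitor of lipoprotein lipase (10.07, gap 1.82). Pck1 on 1423439_at ranked 50 with a gap of 0.90. Hk2 was not part of that pattern: that mouse had the lowest Hk2 value of the double knockout mice, 7.28.

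Double knockout mouse 1 stood at the other end for Pck1. Ranked by how far it lay below all 5 other mice, Pck1 on 1439617_s_at had a gap of 1.57, with 2 of the 18013 ahead of it, Ly6m (2.05) and Tmem229b, which stood under 4 in that mouse (3.93). Below it stood Tns4 (1.37), a tensin, and Cyp27a1 (1.17), a sterol hydroxylase. Hao2, a peroxisomal hydroxyacid oxidase, ranked between Pck1 and Tns4 but was under 4 in all 3 double knockout mice and passed the filter only through the wild type mice, so its gap is not given. Ppara, the fatty acid-sensing receptor, read 8.97, 10.03 and 10.22 in double knockout mice 1, 2 and 3, against 10.29, 10.33 and 10.37 in wild type mice (-0.59 ± 0.31, limma adjusted p = 0.265). On this brightest Ppara probe set, 1449051_at, all 3 double knockout mice lay below every wild type mouse, as on 1439675_at. On 1457721_at the groups overlapped (7.19, 8.18 and 8.30 in double knockout, 7.98, 8.40 and 8.51 in wild type mice). Over all tested probe sets, 14.8% had groups that did not overlap with the double knockout mice lower. Tns4 read 6.10, 7.47 and 7.47 in double knockout mice, against 7.96, 7.84 and 8.13 in wild type mice. Tns4 was picked for its low value in double knockout mouse 1, so nothing is read from its groups not overlapping. The members and the listed Ppara aside, the genes of these rankings were chosen after their values were seen. Each gap rests on 1 mouse, and no test of the gaps was made.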
